A study of Mus musculus with 6 samples.

Results

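Blood vessels of the liver tumors were examined through 10 endothelial genes, matched by symbol among the 30236 genes of the deposited expression table. All 10 were present, and all 10 were among the 22677 genes tested, that is, those with a mean above the lowest 25% of genes. Stab1, Stab2, Lyve1, Clec4g and Fcgr2b stood for the sinusoid, Plvap and Cd34 for capillary-type vessels, and Pecam1, Cdh5 and Kdr for endothelium in general. The tumors came from C57BL/6 mice that were either WT or Top1mt -/- (Top1mt-KO), which lack the mitochondrial type IB topoisomerase in all cells. All mice, controls included, were male and received diethylnitrosamine at day 14 and carbon tetrachloride for 14 weeks from week 8, and hepatocellular carcinomas were collected at 22 weeks. There were 3 tumor libraries of each genotype, made from whole tumor tissue. The labels do not state whether each tumor came from a separate mouse, so p-values measure the spread between these libraries only. Normal liver was not analysed here, so no gain or loss relative to healthy sinusoids was measured.

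Sinusoidal endothelial cells line the liver's exchange vessels. They are perforated by open pores, rest on almost no basement membrane and clear macromolecules from blood through scavenger receptors such as stabilins. In fibrosis and in hepatocellular carcinoma, sinusoids can take on the features of ordinary capillaries, a change called capillarization, in which the pores close, a basement membrane is laid down and markers such as CD34 appear. Plvap forms the diaphragms that span the pores of capillaries outside the sinusoid.

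The stretches of DNA before the RefSeq gene starts are shown for the stabilins, Clec4g and Cd34. The stabilins and Clec4g mark sinusoidal rather than other liver endothelium, and Cd34 is the capillary member with a promoter entry. Of the 10 members, 6 had a RefSeq promoter entry (Stab1, Stab2, Clec4g, Fcgr2b, Kdr and Cd34, GRCm38.p6). Lyve1, Pecam1, Cdh5 and Plvap had none. Each sequence holds the 250 bases before the RefSeq start, written in the direction of transcription. RefSeq and GENCODE M21, the source of the gene positions given below, do not always place a start at the same base. The Stab2 window reaches into the GENCODE gene, which starts at 87008025, and the Cd34 and Kdr windows overlap theirs by a few bases. The Fcgr2b window (chr1:170976072-170976321) lies wholly within its GENCODE gene, which starts at 170976547. Capitals mark GGAA or its reverse complement TTCC, the core that ETS factors recognise, a family with endothelial members such as Erg and Fli1. The windows are chr14:31168642-31168891 (minus strand) for Stab1, chr10:87007943-87008192 (minus strand) for Stab2, chr8:3720652-3720901 (minus strand) for Clec4g and chr1:194938571-194938820 (plus strand) for Cd34.
Stab1: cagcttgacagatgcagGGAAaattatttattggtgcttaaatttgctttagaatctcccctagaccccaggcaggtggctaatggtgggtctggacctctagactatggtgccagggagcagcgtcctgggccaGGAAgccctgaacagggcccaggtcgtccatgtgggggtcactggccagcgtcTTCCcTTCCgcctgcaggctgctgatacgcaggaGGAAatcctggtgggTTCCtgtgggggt
Stab2: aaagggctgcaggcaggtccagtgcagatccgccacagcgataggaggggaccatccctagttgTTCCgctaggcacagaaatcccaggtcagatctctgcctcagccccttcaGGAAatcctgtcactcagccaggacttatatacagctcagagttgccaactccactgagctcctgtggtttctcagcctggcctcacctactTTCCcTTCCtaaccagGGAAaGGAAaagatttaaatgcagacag
Clec4g: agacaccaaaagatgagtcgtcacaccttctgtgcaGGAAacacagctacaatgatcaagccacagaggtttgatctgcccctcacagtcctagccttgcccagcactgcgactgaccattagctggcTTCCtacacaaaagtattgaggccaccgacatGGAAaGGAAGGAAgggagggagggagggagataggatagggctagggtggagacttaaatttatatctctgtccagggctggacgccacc
Cd34: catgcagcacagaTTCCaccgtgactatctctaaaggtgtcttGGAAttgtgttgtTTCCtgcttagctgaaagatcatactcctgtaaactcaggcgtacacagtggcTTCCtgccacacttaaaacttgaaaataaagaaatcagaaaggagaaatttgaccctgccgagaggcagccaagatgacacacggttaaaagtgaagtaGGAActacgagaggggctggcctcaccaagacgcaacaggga
Searched on both strands, with overlapping matches counted, GGAA occurred 6 times in Stab1, 6 in Stab2, 5 in Clec4g, 5 in Cd34, 4 in Fcgr2b and 4 in Kdr. The core is short and common. At least 1 match was present in 93.4% of the 32851 windows of the same length, with a median of 3 matches. GATAA (reverse complement TTATC), a form of the GATA factor site, was searched because Gata4 is a regulator of sinusoidal endothelium. This form was in 0 of the 6 windows and in 22.6% of all windows. The form GATAG (reverse complement CTATC) was not counted, and it can be read in the Stab2, Clec4g and Cd34 windows above. A match is a run of letters and not a measured binding site.

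The libraries were first checked against their labels. Top1mt had log2 values of 7.71, 5.99 and 8.01 in WT and of 5.58, 6.41 and 6.32 in Top1mt-KO (replicates 1 to 3), so the library labelled WT replicate 2 lay among those labelled KO. KO replicate 1 stood apart. Gm42418 accounted for 17.7% of its linear expression sum, against 0.0199% to 0.387% elsewhere, and Lars2 stood at 20.1 there and at 8.44 to 12.7 elsewhere. To a lesser degree WT replicate 3 also stood apart, holding the upper ends of these ranges (0.387% and 12.7). The remaining libraries lay at 0.0199% to 0.0381% and at 8.44 to 9.05. Where leaving out WT replicate 2 or KO replicate 1 turned the sign of a member's difference, both values are given. As a tissue check, the hepatocyte markers were abundant, the least of the 8 being Ass1 at a mean of 13.3. General endothelial markers other than the members were all present, with the lowest mean at 4.69 (Sox7). Across the 22677 genes tested, limma called 0 genes (0%) between genotypes at an adjusted p under 0.05 (Benjamini-Hochberg), and 985 (4.34%) at an unadjusted p under 0.05.

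Endothelial transcripts were abundant in the tumors of both genotypes, and 0 of the 10 members passed an adjusted p of 0.05 by limma. The sinusoidal members showed no shared direction, with 2 at a higher and 3 at a lower mean in Top1mt-KO. The 3 general endothelial members had higher means in KO and the 2 capillary members lower means, the latter through a single library. At an unadjusted p under 0.05 by limma, 1 of 10 members (Cdh5) was higher in KO and 0 were lower, against 1.79% and 2.56% of all genes. The groups did not overlap in 2 of 10 members (Cdh5 and Pecam1), against 8.28% of all genes. Both members were higher in KO and 0 were lower, against 3.95% and 4.33% of all genes. KO replicate 1 was the lowest library in 4 members (Stab1, Kdr, Plvap and Cd34), against 17.1% of all genes, and KO replicate 3 was the highest in 5 (Stab2, Clec4g, Cdh5, Kdr and Plvap), against 16.1%. In whole tumor RNA, fewer endothelial cells and less RNA per cell cannot be told apart.

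**Figure D1:**
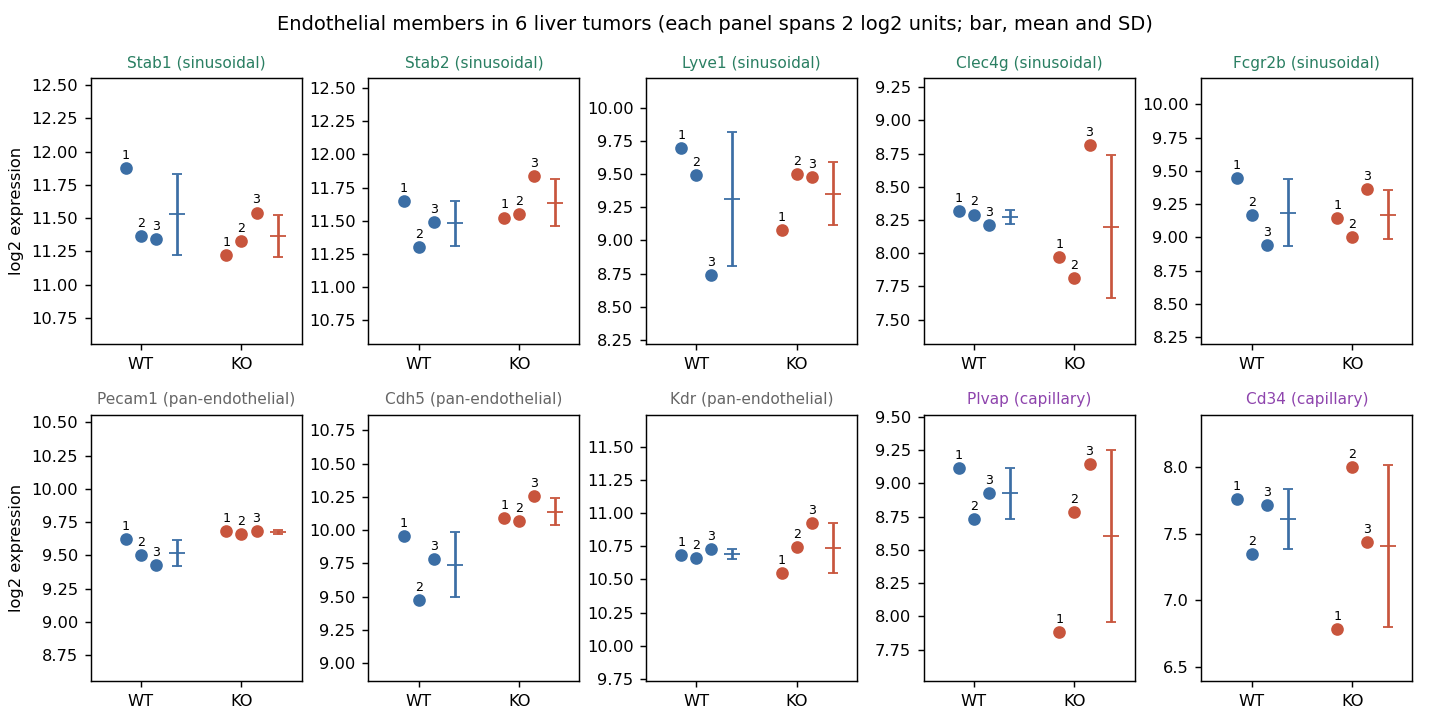
Log2 expression (vertical axis, 2 log2 units in every panel) of the 10 members in 3 WT (blue) and 3 Top1mt-KO (red) tumors, with replicate numbers above the points and the group mean and SD at the side. Pecam1 and Cdh5 do not overlap between genotypes, and KO replicate 1 lies lowest for Plvap (7.88) and Cd34 (6.78).

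Stabilins are large scavenger receptors that take up hyaluronan, modified lipoproteins and collagen fragments, and were the most abundant members. Stab1 (chr14:31139013-31168641, minus strand, GENCODE M21 on GRCm38) read 11.88, 11.36 and 11.34 in WT (replicates 1 to 3, in this order here and throughout). In KO it read 11.23, 11.33 and 11.54. WT replicate 1 was the highest library, the other 5 lay close together, and the groups overlapped. The WT mean of 11.53 ± 0.30 (SD, n = 3) compared with a KO mean of 11.37 ± 0.16 (SD, n = 3). The log2 difference, KO minus WT here and throughout, was -0.16 with a 95% interval from -0.59 to 0.27 (limma's adjusted p = 0.999). Without WT replicate 1 it was 0.013.

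Stab2 (chr10:86841198-87008025, minus strand) read 11.65, 11.31 and 11.49 in WT and 11.52, 11.55 and 11.84 in KO. KO replicate 3 was highest, WT replicate 2 lowest, and the groups overlapped. Its log2 difference was 0.16 (95% interval -0.21 to 0.52, limma's adjusted p = 0.999), and 0.069 without WT replicate 2. The paralogs thus had mean differences of opposite sign, neither beyond the spread between libraries. Within a library, Stab1 minus Stab2 on the log2 scale came to 0.23, 0.057 and -0.14 for WT against -0.30, -0.22 and -0.30 for KO. All KO libraries lay below all WT libraries for this difference, though KO replicate 2 and WT replicate 3 were only a short way apart. This pair was named after its values were seen.

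Lyve1, a hyaluronan receptor shared by sinusoidal and lymphatic endothelium, lies at chr7:110850607-110863239 (minus strand). It read 9.70, 9.50 and 8.74 in WT and 9.08, 9.50 and 9.48 in KO. WT replicate 3 was lowest and WT replicate 1 highest, so the KO libraries fell inside the WT range. The log2 difference was 0.039 (95% interval -0.55 to 0.63, limma's adjusted p = 0.999). Leaving out WT replicate 3 made it -0.25, leaving out WT replicate 2 made it 0.13 and leaving out KO replicate 1 made it 0.18.

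Clec4g (chr8:3707064-3720651, minus strand) encodes LSECtin, a C-type lectin of liver and lymph node sinusoids. It read 8.32, 8.29 and 8.21 in WT and 7.97, 7.81 and 8.82 in KO. The WT libraries were tightly grouped, whereas in KO replicate 3 lay above them and replicates 1 and 2 below. The SD was 0.054 in WT and 0.54 in KO (n = 3 each). The log2 difference was -0.073 (95% interval -0.67 to 0.52, limma's adjusted p = 0.999). Without KO replicate 1 it was 0.041 and without KO replicate 2 it was 0.12. Without KO replicate 3 it was -0.38, with an unadjusted p of 0.0491 and an adjusted p of 0.9998 by limma.

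Fcgr2b (chr1:170958617-170976547, minus strand) encodes the inhibitory Fc receptor through which sinusoidal endothelium clears small immune complexes, and B cells and macrophages also express it. It read 9.45, 9.16 and 8.94 in WT and 9.14, 8.999 and 9.36 in KO. The KO values fell inside the WT range. Its log2 difference of -0.016 was the smallest of the 10 (95% interval -0.42 to 0.39, limma's adjusted p = 0.999). Over the 5 sinusoidal members the median log2 difference was -0.016, beside -0.015 over all genes tested.

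Among the general endothelial members, Cdh5 showed the largest difference of the 10 genes. It encodes VE-cadherin, the adhesion molecule of endothelial junctions, at chr8:104101625-104144511 (plus strand). It read 9.96, 9.47 and 9.78 in WT and 10.09, 10.07 and 10.26 in KO. Every KO library lay above every WT library. The WT mean of 9.74 ± 0.25 (SD, n = 3) compared with a KO mean of 10.14 ± 0.10 (SD, n = 3). The log2 difference was 0.40 with a standard error of 0.16 and a 95% interval from 0.037 to 0.76. The unadjusted p by limma was 0.0349 and the adjusted p 0.999, so Cdh5 did not pass. The exact two-sided permutation test gave p = 0.1, the smallest that 3 against 3 allow. Under 12 alternatives its unadjusted p ran from 0.0191 to 0.119 and stayed under 0.05 in 6. It was above 0.05 in the other 6, namely limma without trend, 4 fits with 1 library left out (WT replicate 2, WT replicate 3, KO replicate 2 or KO replicate 3) and the fit with WT replicate 2 and KO replicate 1 both left out. Its difference was 0.27 without WT replicate 2.

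Pecam1, the endothelial adhesion molecule CD31, lies at chr11:106654217-106750628 (minus strand). It read 9.62, 9.50 and 9.43 in WT and 9.68, 9.66 and 9.68 in KO. The KO libraries were almost identical and lay just above the highest WT library. The log2 difference was 0.16 (95% interval -0.12 to 0.44, limma's adjusted p = 0.999, exact two-sided permutation p = 0.1). Kdr, the main signalling receptor for VEGF-A, lies at chr5:75932827-75978458 (minus strand) and read 10.68, 10.66 and 10.73 in WT and 10.55, 10.75 and 10.92 in KO. KO replicate 1 was its lowest and KO replicate 3 its highest library. Its log2 difference was 0.048 (95% interval -0.27 to 0.37, limma's adjusted p = 0.999). Leaving out KO replicate 1 made it 0.14. The median of the 3 general members was 0.16.

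For the capillary members the mean difference came from 1 library. Plvap (chr8:71497765-71511752, minus strand) read 9.11, 8.74 and 8.93 in WT and 7.88, 8.79 and 9.15 in KO. KO replicate 1 lay 1.06 below the mean of the other 5 libraries, and the other KO libraries lay within or just above the WT range. The log2 difference was -0.32 (95% interval -1.02 to 0.38, limma's adjusted p = 0.999). Leaving out KO replicate 1 made it 0.041.

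Cd34, a sialomucin of capillary endothelium that is also present on blood progenitors and fibroblasts, lies at chr1:194938819-194961279 (plus strand). It read 7.76, 7.35 and 7.71 in WT and 6.78, 8.00 and 7.44 in KO. KO replicate 1 was again lowest, by 0.87 below the mean of the other libraries, and KO replicate 2 was highest. The log2 difference was -0.20 (95% interval -0.91 to 0.51, limma's adjusted p = 0.999). Leaving out KO replicate 1 made it 0.11. Of all genes tested, 5.22% lay as far below the other libraries in KO replicate 1 as Plvap and 8.05% as far as Cd34. Loss of KO replicate 1 turned the sign of the difference in 3 of the 10 members (Clec4g, Plvap and Cd34), and in 17.8% of all genes.

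**Figure D2:**
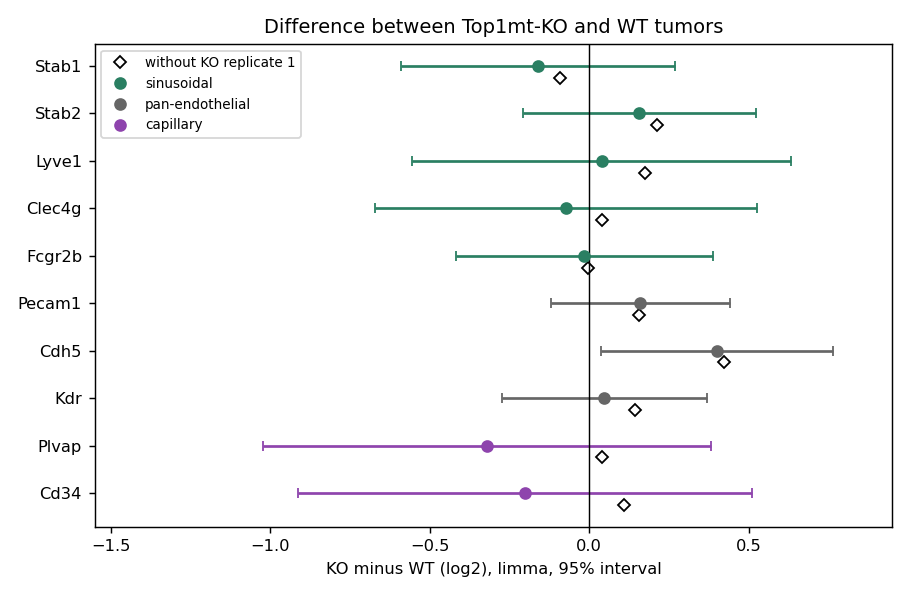
Log2 difference between Top1mt-KO and WT (horizontal axis) for each member, with limma's 95% interval as bars and colors for the member class; open diamonds give the value without KO replicate 1. Only the Cdh5 interval (0.037 to 0.76) leaves out 0, before any adjustment, and the capillary members move from -0.32 and -0.20 to 0.041 and 0.11.

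The sinusoidal and capillary classes were then set against each other within each library. For each class the members' log2 values, centred on the mean of the 6 libraries, were averaged. The WT libraries had sinusoidal means of 0.25, -0.027 and -0.20, and the KO libraries -0.16, -0.11 and 0.26. Capillary means were 0.30, -0.094 and 0.18 for WT against -0.80, 0.26 and 0.15 for KO. Sinusoidal minus capillary thus came to -0.054, 0.067 and -0.39 for WT against 0.64, -0.37 and 0.10 for KO. The genotypes overlapped widely, and the highest value, that of KO replicate 1, went with a low capillary mean (-0.80) and a sinusoidal mean below 0 (-0.16). The group mean was -0.12 ± 0.24 for WT (SD, n = 3) against 0.12 ± 0.51 for KO (SD, n = 3), a gap of 0.25. The gap was -0.0081 without KO replicate 1, 0.35 without WT replicate 2 and 0.088 without both. No p is given for these scores, because the members were chosen by name with earlier results of these data known.

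The sinusoidal and capillary classes were also set against general endothelium. Pecam1, Cdh5 and Kdr together averaged 0.0028, -0.20 and -0.10 for WT against 0.025, 0.074 and 0.20 for KO. Every KO library lay above every WT library, by a narrow margin, in an average of 3 genes of which Cdh5 and Pecam1 did so singly. The average of the 23 other general endothelial genes overlapped, at -0.11 to 0.068 for WT and -0.081 to 0.18 for KO. Sinusoidal minus general came to 0.24, 0.18 and -0.10 for WT against -0.19, -0.19 and 0.052 for KO, with overlap. Capillary minus general came to 0.30, 0.11 and 0.29 for WT against -0.83, 0.18 and -0.051 for KO, again with overlap. The gap between genotypes was -0.21 for sinusoidal and -0.46 for capillary members, and -0.17 for both without KO replicate 1.

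**Figure D3:**
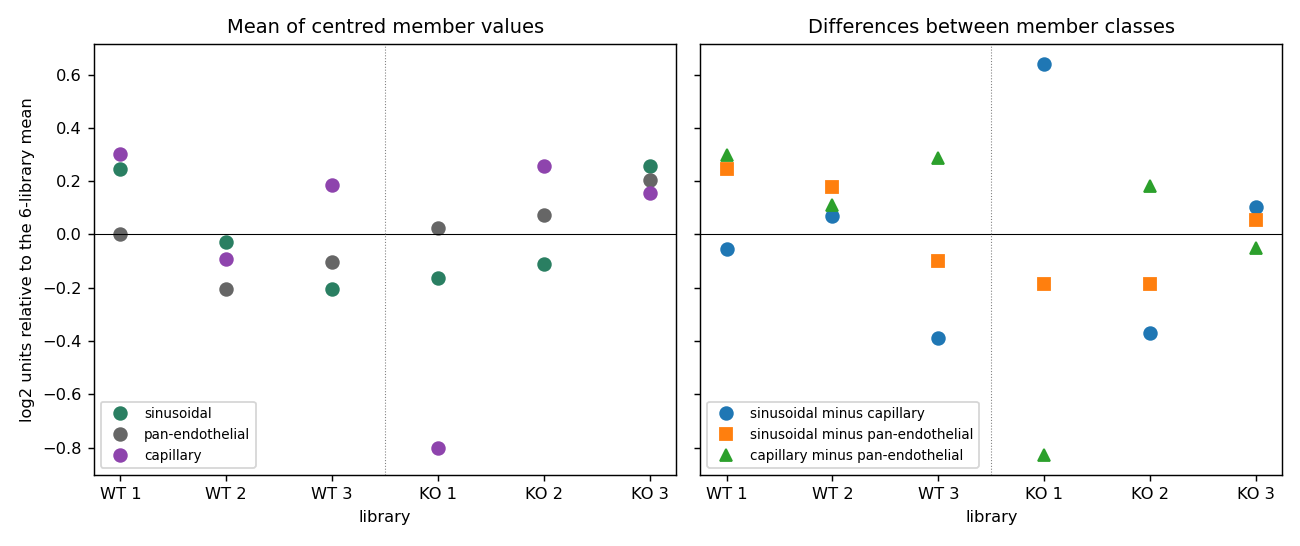
Mean centred log2 value of the 5 sinusoidal, 3 general endothelial and 2 capillary members (left) and the differences between these classes (right) in each of the 6 tumor libraries; the dotted line divides WT from KO. KO replicate 1 has the lowest capillary mean (-0.80) and the highest sinusoidal minus capillary value (0.64).

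The members varied together to unequal degrees over the 6 libraries, which is given as a description, since the points share normalization and genotype. Pearson's r was positive in 10 of 10 pairs of sinusoidal members, with a median of 0.56, and was highest for Stab1 with Fcgr2b (0.81). Plvap and Cd34 had an r of 0.76. Between the sinusoidal and the capillary members r ran from -0.13 to 0.67 with a median of 0.36. The highest r of all 45 pairs, 0.87, joined Stab2 and Cdh5. When the log2 difference between the members of a pair was taken within each library, the genotypes did not overlap in 9 of the 45 pairs, against 7.11% of the 1378 pairs among 53 other endothelial genes. These pairs were counted after values had been seen. Of the 9, 6 include Cdh5 and 3 include Stab1, so the pairs do not count as separate results. Stab1 minus Cdh5 came to 1.92, 1.89 and 1.56 for WT against 1.13, 1.26 and 1.29 for KO, the largest difference between genotypes among these pairs outside the capillary class.

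**Figure D4:**
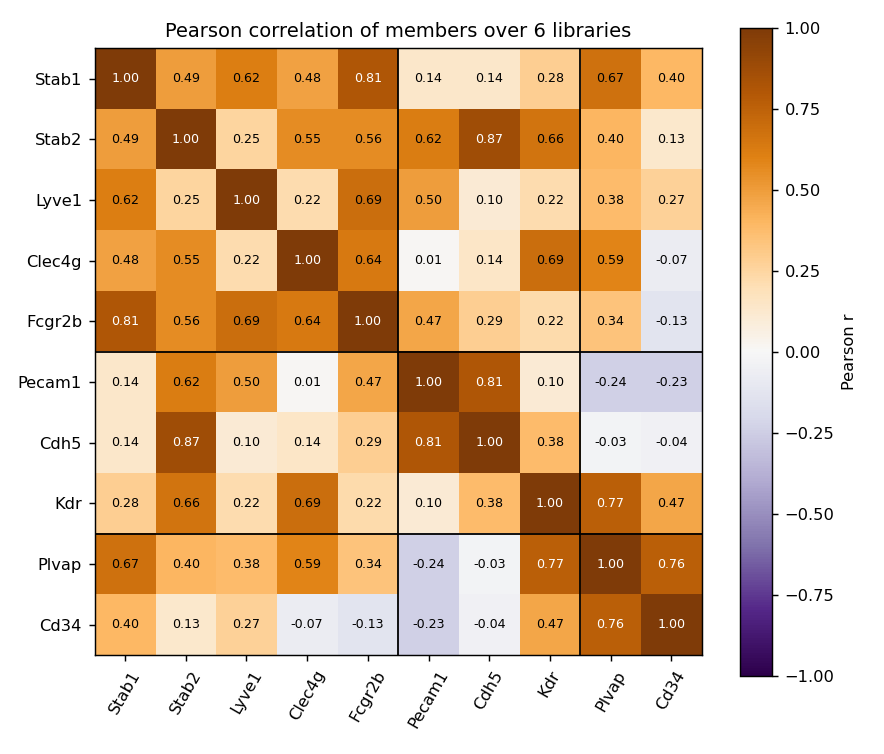
Pearson's r between the log2 values of each pair of members over the 6 libraries, with lines dividing the sinusoidal, general endothelial and capillary classes. Pairs within the sinusoidal class are all positive, with a median of 0.56, and Stab2 with Cdh5 has the highest value (0.87).

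Levels of different genes were compared per length, as the mean log2 value minus the log2 of the gene's exon length in kilobases (GENCODE M21). This takes the deposited values as not scaled to length, which the named counting tools imply but no file states. On this scale Stab2 stood highest at 8.43 and Stab1 next at 8.08. Cdh5 (7.87), Lyve1 (7.79), Plvap (7.77) and Kdr (7.54) formed a middle group. Pecam1 (6.96), Clec4g (6.94) and Fcgr2b (6.64) lay lower and Cd34, at 4.64, was lowest. The library values of neighbours in this order overlapped except between Kdr and Pecam1 and between Fcgr2b and Cd34. Stab2 was above Stab1 in 6 of 6 libraries although their ranges overlapped. Both exceeded Cd34 per length in every tumor. Plvap ran from 6.89 to 8.15, Lyve1 from 7.19 to 8.15 and Cdh5 from 7.40 to 8.19, so the lowest Plvap value, that of KO replicate 1, lay below both.

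Wider lists of endothelial genes were read in the same way. Of 53 further endothelial genes in 3 lists, 26 had a higher and 27 a lower mean in KO, and 0 passed an adjusted p of 0.05 by limma. At an unadjusted p under 0.05 there was 1 (1.89%, against 4.34% of all genes), and the groups did not overlap in 3 (5.66%, against 8.28%). The 15 other sinusoidal genes had a median log2 difference of -0.0075. Clec1b, the platelet receptor CLEC-2 that sinusoidal endothelium also carries, was the 1 gene at that level. It read 8.01, 8.00 and 8.48 in WT and 7.85, 7.73 and 7.59 in KO (log2 difference -0.44, unadjusted p 0.0472 and adjusted p 0.999 by limma). Its highest library, WT replicate 3, was also the highest for 7 of the 9 macrophage genes given below. Which cells carried Clec1b was not tested. Gpr182, a chemokine-binding receptor of sinusoids, had a difference of -0.40 with overlap between groups.

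The 23 other general endothelial genes had a median of 0.067, with 14 higher and 9 lower. Cldn5, a tight junction protein (log2 difference 0.39), and Sox17, an endothelial transcription factor (0.38), had the largest differences of the list, and their groups overlapped. Egfl7, a secreted endothelial factor, did not overlap, at 9.40, 9.25 and 9.38 in WT and 9.51, 9.53 and 9.58 in KO. None of these 23 genes had an unadjusted p under 0.05 by limma.

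The 15 other genes of capillary and tumor endothelium had a median of -0.14, which was -0.00077 without KO replicate 1. Ackr1, a chemokine scavenger of venules, had the largest log2 difference, -1.01 (limma's adjusted p = 0.999), with WT values of 3.11, 4.38 and 3.998 and KO values of 2.44, 3.52 and 2.48. Rgcc, a cell cycle regulator, had -0.87 at low levels, from 0.60 to 2.74. Ly6a, known as Sca-1, was higher in KO without overlap, at 6.77, 7.17 and 7.16 in WT and 7.45, 7.37 and 7.48 in KO (log2 difference 0.40, limma's adjusted p = 0.999). Averaged over this list, centred values ran from 0.032 to 0.17 for WT and from -0.33 to 0.027 for KO, and KO replicate 1 was lowest. KO thus lay below WT by a very slight margin, between WT replicate 1 (0.0316) and KO replicate 2 (0.0275). Weak genes such as Ackr1 and Rgcc weighed as much as any in this average. Of the 15 genes, 5 had a higher and 10 a lower mean in KO.

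Capillarization is also read from basement membrane. Of 12 basement membrane genes, 5 had a higher and 7 a lower mean in KO, with a median log2 difference of -0.075 (0.084 without KO replicate 1), 0 at an unadjusted p under 0.05 by limma and 0 without overlap. The type IV collagen chains, the main network of vascular basement membrane, had differences of 0.14 (Col4a1) and 0.073 (Col4a2). Lamb2, a laminin chain, had -0.48, and Nid2, which links laminin to collagen, had 0.43. KO replicate 1 was the lowest library for 7 of the 12 genes, against 17.1% of all genes tested.

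Other cell types could contribute to the members' values, so their markers were read in the same way. The low capillary values of KO replicate 1 went along with low averages of stromal, lymphatic, biliary and B cell markers. Averaged over 10 stellate cell and fibroblast genes, the centred log2 value was -1.07 in KO replicate 1. The other KO libraries had 0.036 and 0.36, the WT libraries -0.14 to 0.82, and 7 of the 10 genes were lowest in KO replicate 1. Dpt, dermatopontin of the fibroblast matrix, read 4.83 in KO replicate 1 and 6.56 to 8.58 elsewhere. Pi16, a marker of adventitial fibroblasts, read 2.46 there and 3.21 to 4.49 elsewhere. Over this list the median log2 difference was -0.42, and 0.051 without KO replicate 1. Lrat, the retinol-storing enzyme of stellate cells, had -0.79 with overlap (unadjusted p 0.0259 and adjusted p 0.999 by limma). The part of stromal cells in the Plvap and Cd34 values was not tested.

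The lymphatic genes were mixed in KO replicate 1, where 3 of 6 were lowest and 1, Reln, was highest at 13.50 (11.93 to 13.32 elsewhere). Their average was -1.02 there after centring, -0.30 and 0.13 for KO replicates 2 and 3, and 0.019 to 0.87 for WT. Means were lower in KO for 6 of 6, though Prox1 (-0.067) and Ccl21a (-0.043) barely differed, and Ccl21a was 0.37 without KO replicate 1. The median log2 difference was -0.58 both with and without that library. Levels within the list were unlike, from 10.97 to 11.73 for Prox1 and from 0.093 to 1.63 for Ccl21a. Which cells carried these transcripts was not tested. Mmrn1, a lymphatic endothelial matrix protein, read 5.97, 3.99 and 5.46 in WT and 1.65, 3.88 and 4.61 in KO. Pdpn, podoplanin, read 5.11, 3.68 and 3.30 in WT and 0.87, 2.81 and 3.25 in KO, without overlap (log2 difference -1.72, limma's adjusted p = 0.999). Lyve1, although shared with lymphatic vessels, was 9.08 in KO replicate 1 and thus inside the range of the other libraries. Biliary genes were mixed as well, with 2 of 5 lowest in KO replicate 1 and 1, Sox9, highest there at 7.59. The 5 cholangiocyte genes averaged 0.022 to 1.06 for WT and -0.92 to -0.16 for KO, and KO replicate 1 was lowest (-0.92). Of these genes, 3 had lower and 2 higher means in KO. The biliary keratin Krt19 had a log2 difference of -2.68 (unadjusted p 0.00491 and adjusted p 0.987 by limma). Krt7, another, had -2.195 (unadjusted p 0.0170 and adjusted p 0.999 by limma). These were 2 of 5 genes under 0.05 unadjusted, against 4.34% of all genes. Krt19 and Epcam were lower in KO without overlap, 2 of 5 against 8.28% of all genes.

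Markers of blood cells were also read, since some blood cells share sinusoidal markers. The 9 macrophage genes averaged -0.52, -0.41 and 0.71 for WT and -0.19, -0.024 and 0.44 for KO. WT replicate 3 was the highest library for 7 of the 9 and the lowest for Lyve1 and Fcgr2b. The part of macrophages and of B cells in the members' values was not tested. Cd163, a haemoglobin scavenger receptor, had a difference of 1.08 with overlap, and Cd5l had -0.29. The average of the 5 B cell genes was highest in KO replicate 3 (1.04) and lowest in KO replicate 1 (-0.74), with a median difference of -0.015. The sinusoidal mean was also highest in KO replicate 3 (0.26). Among them Ms4a1, the B cell surface protein CD20, had 0.24. The 5 platelet and blood genes had a median of -0.11, with Pf4 at -0.66 and Ppbp at -0.27. The 8 hepatocyte genes had a median of -0.036, with Ttr at 0.58, without overlap, and Alb at 0.25. In the B cell, platelet and hepatocyte lists 0 genes had an unadjusted p under 0.05 by limma, and in the macrophage list only Cd163 did.

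**Figure D5:**
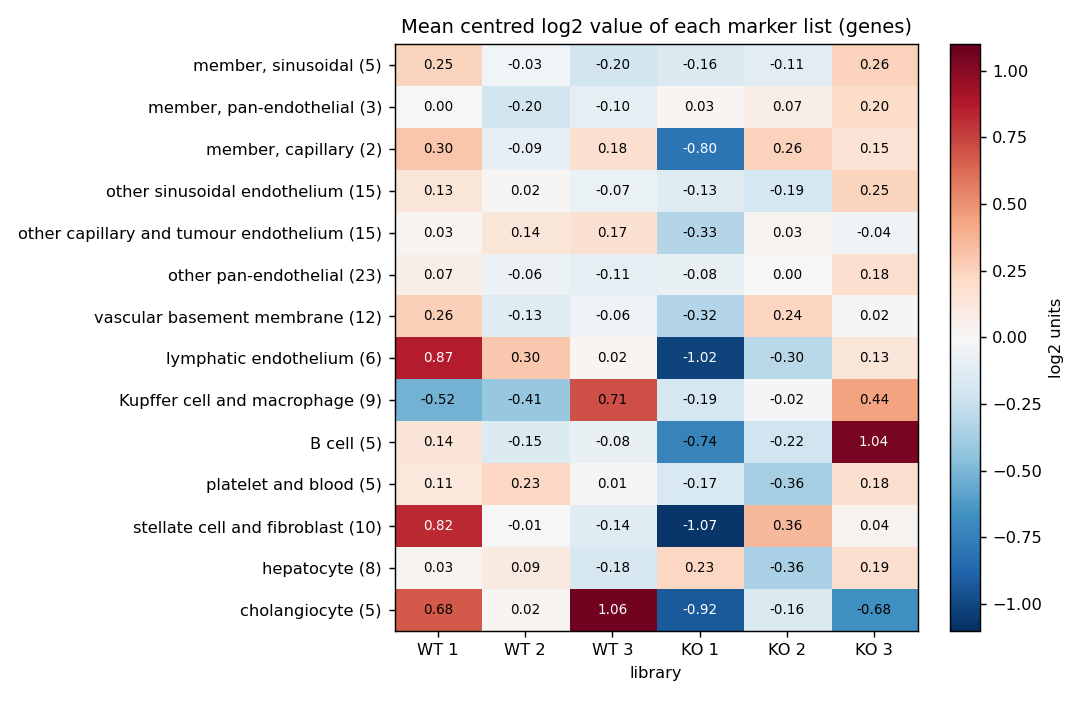
Mean centred log2 value of each marker list (rows, number of genes in brackets) in each library (columns), in log2 units relative to the 6-library mean. KO replicate 1 is low for the capillary members (-0.80) and the stellate cell and fibroblast (-1.07), lymphatic (-1.02), cholangiocyte (-0.92) and B cell (-0.74) lists. It is closer to the other libraries for the sinusoidal members (-0.16).

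Genes with profiles most like those of the classes were listed among 14194 genes with an SD of at least 0.3, excluding the members, by Pearson's r over 6 libraries. For the sinusoidal mean they included Arhgef25, Gm27928, Ltbp4 and Khdrbs3, with r from 0.976 to 0.987. Each of these was highest in WT replicate 1 or KO replicate 3, as the sinusoidal mean was. For the capillary mean they were Trim45, Rab3il1, Nkd1, Btbd10 and Wrb, with r from 0.991 to 0.999. All of these were lowest in KO replicate 1, and Rab3il1 read 5.396 there and 6.76 to 7.39 elsewhere. Each r rests on 6 points that share the normalization, and nothing was tested.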

How the data were processed

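RNA from 3 WT and 3 Top1mt-KO liver tumors was sequenced as stranded libraries, and genotype and replicate were taken from the sample titles. The deposited table gives log2 expression by gene symbol. Per the paper's methods, reads were trimmed, aligned with BWA to a mouse genome called Mm 8 and summarized with featureCounts, followed by DESeq2. The submitters' processing notes instead name bcl2fastq 2.17, Trimmomatic 0.36, STAR 2.5.1, Subread, DESeq2 and GRCm38. The sources used here do not name the log2 transform. The values run from -2.24 to 22.0. The counting tools named do not scale to gene length, and whether the transform draws weak genes together was not tested. Depth is unknown and no count model could be used. The 3 unnamed columns were left out.

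WT and KO were compared in R 4.3.3 by limma 3.58.1 (lmFit, eBayes with trend, Benjamini-Hochberg over 22677 genes, threshold 0.05). Standard errors and 95% intervals are limma's. Tested on simulated data of 22677 genes with 200 shifted genes, the procedure recovered 0 genes at a shift of 1 on the log2 scale, 105 at 2 and 179 at 4, and the largest difference of a member was below the smallest of these. Class scores are means of centred log2 values and carry no test. Named were all members, Top1mt, the 2 genes of each wider list with the largest difference, 5 genes most like each class, and genes marking a library that stood apart. Of these, 2 genes are not reported here. Further list genes were picked after their values were seen. The members and lists were chosen with earlier results of these data known. Alternatives were limma without trend, quantile normalization, other filters, other thresholds, the replicate number as a block, libraries left out and other forms of the contrast. Gene positions come from GENCODE M21 on GRCm38 and promoters from RefSeq. The deposited values carry no coordinates.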

Additional observations from a re-analysis of the deposited data

How the results depend on the processing

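No member passed an adjusted p of 0.05 by limma under any alternative, and the smallest adjusted p of a member was 0.837. Over all genes, 0 passed as reported, 4 passed with no filter on low values and from 0 to 1 with a library left out, the 1 (Prom1, named after its value was seen) being without Top1mt-KO replicate 1. An adjusted p under 0.1 gave 0. The replicate block gave 0 genes and 0 members past the threshold and left the log2 differences as they were. Deviations from the group mean correlated at -0.12, -0.076 and 0.052 between libraries that share a number. These values gave no sign of pairing by number, though so few libraries cannot exclude it, and the block changed no call. Members at an unadjusted p under 0.05 numbered 1 (Cdh5) and became 0 without trend, without WT replicate 2, WT replicate 3 or KO replicate 2, and with WT replicate 2 and KO replicate 1 both left out. Without KO replicate 3 the 1 member was Clec4g, lower in KO, and not Cdh5. Genes at that p numbered 859 to 1354 in the fits of 22677 genes, 590 of 15118 with the filter at the median and 1003 of 30236 with no filter.

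The sign depended on single libraries for 7 of the 10 members. The share of all genes was counted only for KO replicate 1 (17.8%), so this count has no background to be set against. With 1 library left out, log2 differences ran from -0.25 to 0.013 for Stab1, -0.25 to 0.23 for Lyve1, -0.38 to 0.12 for Clec4g, -0.14 to 0.12 for Fcgr2b, -0.045 to 0.14 for Kdr, -0.59 to 0.041 for Plvap and -0.50 to 0.11 for Cd34. With WT replicate 2 and KO replicate 1 both left out, Clec4g was 0.050, Plvap -0.054 and Cd34 -0.020. Stab2 (0.057 to 0.24), Pecam1 (0.11 to 0.21) and Cdh5 (0.27 to 0.51) kept their sign. The sinusoidal minus capillary gap ran from -0.0081 to 0.50 with 1 library left out. Without the members that macrophages or B cells also express (Stab1, Lyve1 and Fcgr2b), which leaves Stab2 and Clec4g for the sinusoid, the gap was 0.30. It was 0.31 with Plvap alone for capillaries and 0.59 in SD units. With 1 library left out, the gaps against general endothelium kept their sign. They ran from -0.32 to -0.14 for sinusoidal and from -0.67 to -0.17 for capillary members. The causes were not tested. Depth is unknown, and 3 libraries per group limit the precision.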
